A study of Mus musculus with 18 samples.

Results

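The genes described here are Ppargc1a, which encodes the coactivator PGC-1α, the nuclear receptor genes Ppara and Esrra, and 7 genes for the mitochondrial oxidation of long- and medium-chain fatty acids, Cpt1a, Cpt2, Acadm, Acadl, Acadvl, Hadha and Hadhb. They were taken by name and make up 10 of the 55487 genes in the count table. The RNA came from im-TEC, a conditionally immortalized line of mouse tubular epithelial cells. It is expanded with large T antigen under interferon-γ, and before seeding all cells were switched to restrictive conditions without interferon-γ to lower that activity. The 6 groups, 3 libraries each, were untreated cells (control) and cells given for 48 h either TGFβ (10 ng/mL), nicotinamide (1 mM, NAM), S-adenosyl methionine (0.5 mM, SAM), TGFβ plus NAM, or TGFβ plus SAM. TGFβ is a profibrotic cytokine, and NAM and SAM are the substrates of the enzyme NNMT, which the series title ties to tubular senescence and fibrosis. The maintenance medium of every group held serum, insulin, epidermal growth factor, hydrocortisone and thyroid hormone. The labels do not say whether the 3 libraries of a group came from separate cultures, so p-values measure the spread between libraries, which may be technical.

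Tubular cells draw most of their energy from the oxidation of fatty acids in mitochondria. PGC-1α does not bind DNA by itself; it docks on receptors such as PPARα and ERRα (the products of Ppara and Esrra) and raises transcription of genes for mitochondria and fat oxidation. Long-chain fatty acids enter the mitochondrion as carnitine esters, made at the outer membrane by Cpt1a, the controlled entry step, and turned back into acyl-CoA at the inner membrane by Cpt2. Each round of oxidation opens with an acyl-CoA dehydrogenase chosen by chain length: Acadvl for very long, Acadl for long and Acadm for medium chains. For long chains the next steps are carried out by the trifunctional protein, whose α subunit is Hadha and β subunit Hadhb. Loss of PGC-1α and of fat oxidation is a known feature of injured and fibrotic kidney tubules.

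Depth was 4171170 to 7717626 reads assigned to genes per library. Levels are CPM, read counts over the library size after trimmed-mean scaling; they are not to be compared between genes. Changes are log2 with their SE, and a gene was called when its Benjamini-Hochberg adjusted p from edgeR's quasi-likelihood test over all 13469 tested genes was under 0.05. All 6 libraries with SAM, TGFβ or not, carry library numbers in a separate run from the other 12, and SAM replicates 2 and 3 have treatment tags that do not match their titles, which were used here. The tubular label was checked on marker genes. The transcription factor Pax8 gave 4673 reads in the control libraries together, Pax2 6091 and the kidney cadherin Cdh16 3392, whereas Epcam had 0 and Cdh1 4. Of 13 proximal tubule markers, 5 reached 10 reads in control, with Aqp1 and Lrp2 among them, and 5 had none, including Slc34a1, Slc22a6 and Miox. Markers of other cells were at or near 0 for endothelium (at most 1.38 CPM summed over 5 genes in any library), while the immune list summed to 100.3 to 102 CPM in control through Csf1r and Cd68, with Ptprc at 2 reads and Adgre1 at 0.

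Of the 10 genes, 9 passed the low-count filter. Ppara (chr15:85734983-85802819) did not: it had 6 reads in control, 4 in TGFβ, 12 in NAM, 7 in TGFβ+NAM, 7 in SAM and 2 in TGFβ+SAM, each over 3 libraries. No comparison of Ppara between groups was detectable at this depth.

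Ppargc1a, on the minus strand of chromosome 5 (chr5:51454250-51567726, GRCm38), had the largest change with TGFβ of the 9 tested genes in each of the 3 backgrounds. In control it stood at 153, 156 and 178 CPM in replicates 1 to 3, and in TGFβ at 21.4, 20.4 and 22.4. With NAM it stood at 166, 142 and 156 CPM, and at 13.3, 12.8 and 14.9 once TGFβ was added. The SAM libraries were at 293, 289 and 329 CPM and the TGFβ+SAM libraries at 21.1, 22.8 and 36.3. Every library with TGFβ therefore lay far below every library without it, and the 3 SAM libraries lay above all others. The fall was 7.60-fold without a supplement (log2 change -2.93 ± 0.14, SE; adjusted p = 2.60e-20). With NAM present it was 11.3-fold (-3.50 ± 0.14, adjusted p = 2.53e-22), and with SAM present 11.3-fold (-3.50 ± 0.13, adjusted p = 1.21e-23). These 3 comparisons share no library.

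**Figure D1:**
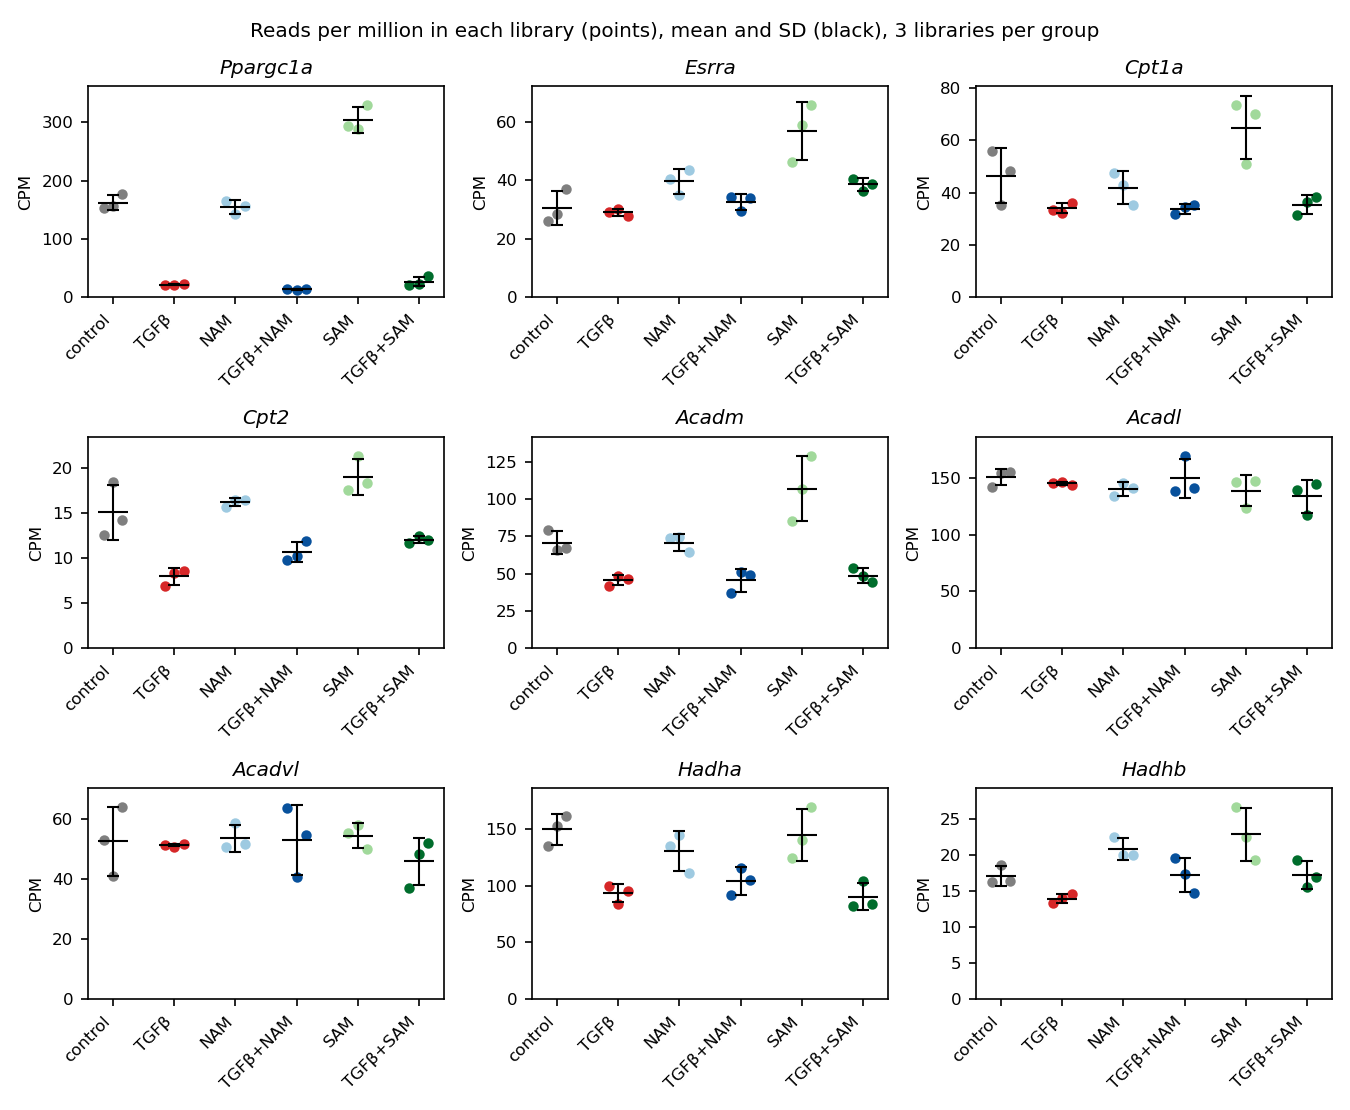
CPM of the 9 tested genes in every library (points, 3 per group) with the group mean and SD in black; each panel has its own linear axis from 0. Ppargc1a falls to a mean of 21.4 CPM in TGFβ from 162 in control and stands at 304 in SAM, while Acadl lies between 117 and 169 CPM in all 18 libraries.

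In order of level, Ppargc1a stood at 304 ± 22.2 CPM in SAM (SD, n = 3), 162 ± 13.4 in control, 155 ± 11.9 in NAM, 26.7 ± 8.33 in TGFβ+SAM, 21.4 ± 0.966 in TGFβ and 13.7 ± 1.08 in TGFβ+NAM. SAM and control differed (1.87-fold, adjusted p = 1.95e-07), whereas control and NAM did not pass (-0.07 ± 0.11, 95% interval -0.30 to 0.16, adjusted p = 0.993). Among the TGFβ groups, neither TGFβ+SAM nor TGFβ+NAM differed from TGFβ alone beyond the threshold in edgeR, but they differed from each other (1.97-fold higher with SAM, adjusted p = 2.50e-05). The TGFβ+NAM libraries, at 12.8 to 14.9 CPM, did not overlap the TGFβ libraries, at 20.4 to 22.4 CPM. That change of -0.64 ± 0.16 had an adjusted p of 0.134 in edgeR, 0.0498 in DESeq2 and 0.0219 in edgeR without the low-count filter, so the call depends on the tool and the filter.

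As examples of sequence before the genes compared here, the 250 bases before an annotated start are given for Ppargc1a, Acadm and Acadvl. Ppargc1a had the largest fall, Acadm was lower with TGFβ in all 3 backgrounds, and Acadvl was called in none of them. Tags near the 3′ end of a transcript do not show which start was in use. All 10 genes have a single entry each in the RefSeq promoter table (GRCm38.p6). Sequences run 5′ to 3′ on the gene's own strand, and the letters searched, on both strands, were AGGTCA, the core of sites bound by nuclear receptors such as PPARα and ERRα, and TGACG, the core of the cAMP response element. Capitals mark a match to either.
Ppargc1a, chr5:51567726-51567975, minus strand: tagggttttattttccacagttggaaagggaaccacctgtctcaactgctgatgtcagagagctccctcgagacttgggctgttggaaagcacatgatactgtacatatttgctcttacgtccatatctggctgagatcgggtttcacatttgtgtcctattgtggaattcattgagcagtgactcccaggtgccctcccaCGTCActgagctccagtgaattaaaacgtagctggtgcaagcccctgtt
Acadm, chr3:153944644-153944893, minus strand: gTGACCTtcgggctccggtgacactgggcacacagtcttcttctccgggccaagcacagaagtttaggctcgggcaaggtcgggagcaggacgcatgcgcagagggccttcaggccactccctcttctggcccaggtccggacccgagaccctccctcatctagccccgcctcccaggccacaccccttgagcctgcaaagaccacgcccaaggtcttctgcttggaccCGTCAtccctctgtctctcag
Acadvl, chr11:70015429-70015678, minus strand: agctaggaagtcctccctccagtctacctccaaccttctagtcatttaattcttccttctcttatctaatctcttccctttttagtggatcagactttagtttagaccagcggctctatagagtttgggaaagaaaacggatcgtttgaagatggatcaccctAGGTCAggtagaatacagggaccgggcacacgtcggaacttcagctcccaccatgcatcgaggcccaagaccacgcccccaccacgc

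AGGTCA occurred in 3 of the 10 windows, those of Cpt1a, Acadm and Acadvl, and in 14% of the 32851 windows of the table. TGACG occurred in 3, those of Ppargc1a, Ppara and Acadm, and in 17.8% of all windows. The longer elements TNAAGGTCA, AGGTCANAGGTCA and TGACGTCA were in none of these 10 windows. They were found in 1.14%, 0.0335% and 1.55% of all windows, in that order. The shorter motifs are contained in them. Sequence outside these windows, such as that before other starts of the same genes, was not searched. A match describes these letters only. Hadha and Hadhb are arranged head to head: their annotated first bases lie 273 bases apart on opposite strands, and their 250-base windows share 228 bases.

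The first question was which of these genes respond to the cytokine, alone or beside a supplement. Without a supplement, of 9 tested genes, 5 were lower and 0 higher, where 9.74% of all tested genes were lower; the median log2 change of the 9 was -0.46, against 0.01 over all genes. The 5 were Ppargc1a, Cpt1a, Cpt2, Acadm and Hadha. With NAM present 4 were lower and 0 higher (background 11%), and with SAM present 6 were lower and 0 higher (background 14.2%). Lower in all 3 were Ppargc1a, Cpt2, Acadm and Hadha, 4 of 9, against 6.65% of all tested genes. In a bulk sample, fewer cells of a type and less RNA per cell cannot be told apart.

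Of the carnitine shuttle enzymes, Cpt2 was lower with TGFβ on all 3 backgrounds and Cpt1a on 2. Cpt2 (chr4:107903981-107923610) was at 12.5, 18.4 and 14.2 CPM in control and 6.91, 8.33 and 8.60 in TGFβ, with no overlap, a log2 change of -0.93 ± 0.23 (adjusted p = 0.00277). Each TGFβ library was thus under the lowest control. With NAM it went from 15.7, 16.4 and 16.5 CPM to 9.75, 10.3 and 11.8, and with SAM from 17.5, 21.3 and 18.3 to 11.7, 12.4 and 11.9. These groups did not overlap either, and the changes were -0.61 ± 0.22 (adjusted p = 0.0442) and -0.66 ± 0.22 (adjusted p = 0.0201). The call with NAM was lost when any 1 of the 6 libraries was left out (adjusted p = 0.0541 to 0.132), and the call with SAM without SAM replicate 2 (0.0886) or TGFβ+SAM replicate 1 (0.0534). With SAM replicates 2 and 3 left out, because of their tags, 3 of the 6 calls with SAM were lost, those of Cpt2 (-0.54, adjusted p = 0.278), Hadha (-0.46, 0.0506) and Esrra (-0.26, 0.463).

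Cpt1a (chr19:3322334-3385733) was at 56.1, 35.5 and 48.1 CPM in control and 33.5, 32.4 and 36.1 in TGFβ, where the highest TGFβ library lay just above the lowest control. The change of -0.46 ± 0.16 was called (adjusted p = 0.0393), but not when control replicate 1 or 3 or any of the 3 TGFβ libraries was left out (adjusted p = 0.0619 to 0.299). With NAM, 47.7, 42.8 and 35.4 CPM stood against 31.7, 34.6 and 35.3, a change of -0.31 ± 0.16 that did not pass (adjusted p = 0.183). With SAM, Cpt1a fell from 73.5, 51.1 and 70.0 CPM to 31.4, 36.5 and 38.5, a change of -0.87 ± 0.16 (adjusted p = 2.86e-05). In the 3 groups with TGFβ, Cpt1a stood at 34.0, 33.9 and 35.5 CPM on average; the groups without TGFβ ranged from 42.0 in NAM to 64.9 in SAM.

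Of the acyl-CoA dehydrogenases, Acadm was lower with TGFβ on all 3 backgrounds, and Acadl and Acadvl were called on none. Acadm, the medium-chain enzyme (chr3:153922357-153944632), was at 79.5, 65.6 and 67.2 CPM in control and 42.0, 48.2 and 46.4 in TGFβ. With NAM it went from 73.8, 74.3 and 64.6 CPM to 36.7, 50.8 and 48.8, and with SAM from 85.3, 107 and 129 to 53.7, 48.3 and 44.2. In none of the 3 pairs did the libraries overlap. Its changes were -0.64 ± 0.14 (adjusted p = 6.35e-04), -0.64 ± 0.14 (adjusted p = 4.83e-04) and -1.14 ± 0.14 (adjusted p = 1.05e-08), and each call held with any 1 library of the comparison left out.

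Acadl, the long-chain enzyme (chr1:66830839-66863277), ranged from 142 to 155 CPM in control and 144 to 146 in TGFβ, with overlapping libraries. Its change was -0.05 ± 0.10 (95% interval -0.26 to 0.15, adjusted p = 0.790), and the intervals were -0.11 to 0.30 with NAM and -0.26 to 0.15 with SAM. Acadvl, the very-long-chain enzyme (chr11:70010183-70015411), ranged from 40.9 to 63.8 CPM in control, 50.7 to 51.6 in TGFβ, 50.5 to 58.7 in NAM, 40.7 to 63.6 in TGFβ+NAM, 49.8 to 58.0 in SAM and 37.0 to 52.0 in TGFβ+SAM. None of its TGFβ changes passed, with intervals of -0.34 to 0.28, -0.33 to 0.29 and -0.55 to 0.07. A fall as large as that of Acadm in TGFβ against control lies outside the interval of both genes in that comparison.

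Hadha, the α subunit of the trifunctional protein, fell with TGFβ and Hadhb, the β subunit, was not called. Hadha (chr5:30118304-30155162) stood at 135, 153 and 162 CPM in control and 99.9, 84.4 and 95.8 in TGFβ, at 135, 145 and 111 in NAM and 91.5, 116 and 105 in TGFβ+NAM, and at 124, 140.0 and 169 in SAM and 82.6, 104 and 84.1 in TGFβ+SAM. Groups overlapped only with NAM. The changes were -0.68 ± 0.12 (adjusted p = 2.88e-05), -0.33 ± 0.12 (adjusted p = 0.0447) and -0.68 ± 0.12 (adjusted p = 2.11e-05). The call with NAM was lost in DESeq2 (adjusted p = 0.0630) and without NAM replicate 1 or 2 or TGFβ+NAM replicate 1 or 3 (adjusted p = 0.0902 to 0.234).

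Hadhb (chr5:30155248-30184593) ranged from 16.2 to 18.6 CPM in control, 13.3 to 14.5 in TGFβ, 19.9 to 22.5 in NAM, 14.7 to 19.5 in TGFβ+NAM, 19.3 to 26.6 in SAM and 15.5 to 19.3 in TGFβ+SAM. Its TGFβ changes were -0.30 ± 0.20, -0.27 ± 0.19 and -0.41 ± 0.19, with adjusted p-values of 0.354, 0.357 and 0.118. All 3 lay on the same side of 0, and their intervals still include a change of the size seen for Hadha in the same comparison. Whether the 2 subunits differ in their response was not tested.

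Esrra, the gene of ERRα (chr19:6910977-6921813), was at 26.1, 28.6 and 37.2 CPM in control and 29.1, 30.2 and 27.8 in TGFβ. The libraries overlapped, and the change was -0.07 ± 0.16 (adjusted p = 0.833). With NAM it went from 40.3, 35.1 and 43.7 to 34.2, 29.5 and 33.9 CPM, -0.29 ± 0.15 (adjusted p = 0.199). With SAM it fell from 46.3, 58.8 and 65.7 to 40.6, 36.4 and 38.8 CPM, -0.56 ± 0.15 (adjusted p = 0.00384), to a mean of 38.6 CPM. Against the control mean of 30.6 CPM, TGFβ+SAM gave 0.34 ± 0.15 (adjusted p = 0.105), which was called without control replicate 3 (0.50, adjusted p = 0.0318).

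**Figure D2:**
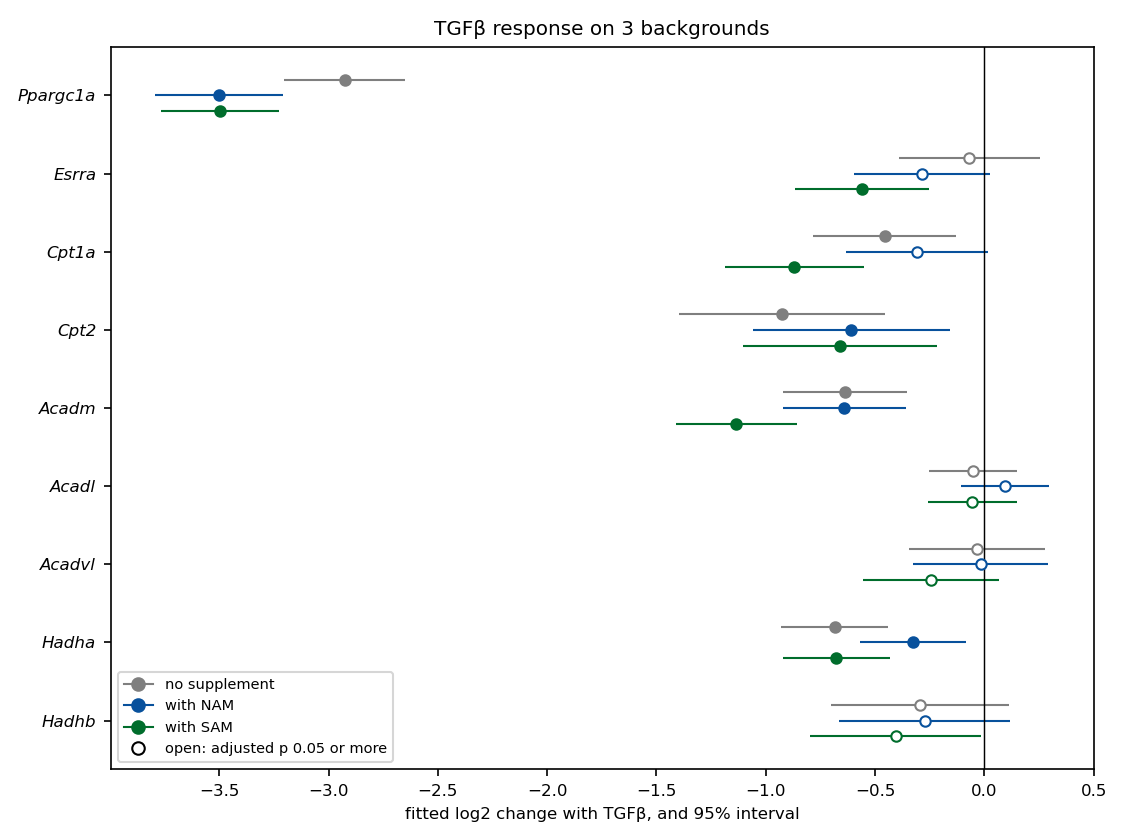
Fitted log2 change with TGFβ (x axis, 95% interval as a line) for each tested gene without a supplement, with NAM and with SAM; filled points passed an adjusted p of 0.05. Ppargc1a lies between -3.50 and -2.93 on all backgrounds, Cpt2, Acadm and Hadha are filled in all 3, and Acadl, Acadvl and Hadhb are open in all 3.

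In the absence of TGFβ, both tested regulators and 2 of the enzymes were higher in the SAM libraries than in control. Ppargc1a, Esrra, Cpt1a and Acadm were higher, 4 of 9 genes with 0 lower, where 5.02% of all tested genes were higher. Ppargc1a rose by 0.90 ± 0.11 and Esrra by 0.90 ± 0.15 (adjusted p = 4.31e-05), from 26.1, 28.6 and 37.2 CPM to 46.3, 58.8 and 65.7 with no overlap. Acadm rose from 70.8 ± 7.58 to 107 ± 21.7 CPM (SD, n = 3), by 0.59 ± 0.13 (adjusted p = 0.00184). Cpt1a rose by 0.48 ± 0.15 (adjusted p = 0.0348), a call lost without control replicate 2 or 3 or SAM replicate 1 or 3 (adjusted p = 0.0805 to 0.289). Cpt2 and Hadhb gave 0.33 ± 0.22 and 0.42 ± 0.19 and did not pass (adjusted p = 0.359 and 0.165). Intervals for Acadl, -0.32 to 0.08, Acadvl, -0.26 to 0.36, and Hadha, -0.29 to 0.18, all span 0.

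Against the NAM libraries, SAM gave the same 4 genes as higher and 0 as lower (background 6.56%): Ppargc1a by 0.97 ± 0.11, Cpt1a by 0.63 ± 0.15, Acadm by 0.59 ± 0.13 and Esrra by 0.52 ± 0.15. This comparison uses the same SAM libraries as the one with control. The Esrra call was lost without NAM replicate 2 (adjusted p = 0.0840) or SAM replicate 3 (0.114). Without SAM replicates 2 and 3, whose tags conflict with their titles, 1 SAM library remains, assumed to vary like the other groups, and of the 4 genes only Ppargc1a was still called against control, at 0.85 (adjusted p = 8.91e-04). Esrra then gave 0.60 (adjusted p = 0.115), Cpt1a 0.66 (0.0687) and Acadm 0.27 (0.504). As all SAM libraries stand in their own run of library numbers, an effect of SAM and a difference of preparation cannot be told apart here.

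Under TGFβ, SAM brought none of the 9 past the threshold: edgeR called 0 against TGFβ alone (background 7.32%) and DESeq2 called 0. At an unadjusted p under 0.05 there were 3 of the 9, against 2724 of all 13469 tested genes. Ppargc1a gave 0.33 ± 0.15 (95% interval 0.03 to 0.64, adjusted p = 0.192), and its 3 TGFβ+SAM libraries were uneven, with replicate 3 well above the other two. Cpt2 gave 0.60 ± 0.24, Esrra 0.41 ± 0.16 and Hadhb 0.31 ± 0.20, each without overlap between the libraries. None of these passed (adjusted p = 0.124, 0.115 and 0.423). Acadm, higher with SAM in the absence of TGFβ, gave 0.10 ± 0.14 in its presence (interval -0.19 to 0.39).

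Whether the TGFβ response differs with SAM was tested as an interaction, the TGFβ change with SAM minus that without. It was called for 0 of 9 genes in edgeR (background 1.43%) and for 0 in DESeq2. An unadjusted p under 0.05 was reached by 3 of the 9, against 1403 of all 13469 tested genes. The values were -0.57 ± 0.19 for Ppargc1a (adjusted p = 0.153), -0.50 ± 0.20 for Acadm (0.281), -0.49 ± 0.22 for Esrra (0.401) and -0.41 ± 0.23 for Cpt1a (0.543). Without TGFβ+SAM replicate 3, the library with the high value, Ppargc1a gave -0.87 and was called (adjusted p = 0.00216), so whether it is called depends on that library.

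NAM alone left every tested gene short of the threshold. EdgeR called 0 of 9 against control (background 0.00742%) and DESeq2 called 0. At an unadjusted p under 0.05 there was 1 of the 9, against 722 of all 13469 tested genes. That gene was Esrra, with 0.38 ± 0.15 and an adjusted p of 0.874. Over the 9 genes, the 95% intervals lay between -0.46 and 0.69, so changes of 2-fold in either direction lie outside them. Under TGFβ, NAM gave 0 of 9 in edgeR (background 0.0817%) and 1 in DESeq2, which was Ppargc1a. It was also the 1 gene of the 9 at an unadjusted p under 0.05, against 932 of all 13469 tested genes. The interaction of NAM with TGFβ was called for 0 of 9 genes and for 0% of all genes in edgeR. At an unadjusted p under 0.05 there were 2 of the 9, Ppargc1a with -0.57 ± 0.20 and Hadha with 0.36 ± 0.17. Of all 13469 tested genes, 462 were under it. DESeq2 called 0 of the 9.

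**Figure D3:**
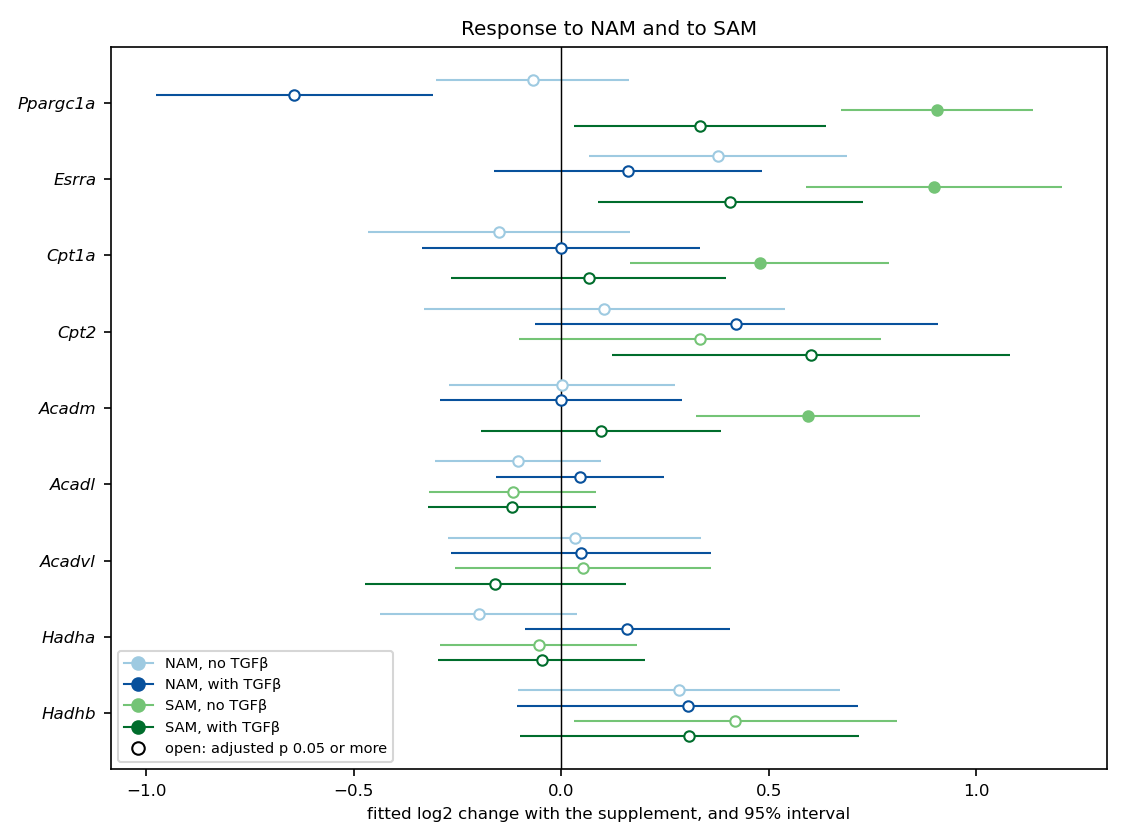
Fitted log2 change with NAM or SAM (x axis, 95% interval as a line), without and with TGFβ; filled points passed an adjusted p of 0.05. Filled points are limited to SAM without TGFβ, for Ppargc1a, Esrra, Cpt1a and Acadm.

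Set against untreated control, genes that TGFβ lowered were still lower with either supplement present. In TGFβ+NAM, 4 of 9 were lower than control (background 11.1%): Ppargc1a (-3.57 ± 0.14), Acadm (-0.64 ± 0.14), Hadha (-0.52 ± 0.12) and Cpt1a (-0.46 ± 0.16). The Cpt1a call was lost without control replicate 1 or 3 or any TGFβ+NAM library (adjusted p = 0.0549 to 0.273). In TGFβ+SAM, 3 of 9 were lower (background 14.1%): Ppargc1a (-2.59 ± 0.13), Hadha (-0.73 ± 0.12) and Acadm (-0.54 ± 0.14). Cpt1a joined them without control replicate 2 (-0.56, adjusted p = 0.0123). Cpt2 was called against control in neither, with -0.51 ± 0.22 in TGFβ+NAM (adjusted p = 0.108) and -0.33 ± 0.22 in TGFβ+SAM (0.300). These comparisons share the control libraries. Between the supplements under TGFβ, 1 of 9 genes was higher with SAM, Ppargc1a (background 3.68%).

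Beyond the 10 genes, the genes of mitochondrial fat oxidation that were called in TGFβ against control were lower. Of 25 tested genes of mitochondrial oxidation outside the 10, 0 were higher and 9 lower (median -0.39, with all genes as above at 9.74% lower and a median of 0.01). The thiolase Acaa2 fell from 57.1 ± 1.99 to 22.6 ± 1.95 CPM (-1.33 ± 0.15, adjusted p = 2.29e-09). The mitochondrial thioesterase Acot2 changed by -1.26 ± 0.14, the short-chain hydroxyacyl-CoA dehydrogenase Hadh by -0.59 ± 0.10 and the acyl-CoA synthetase Acsl5 by -0.58 ± 0.11. With NAM 1 was higher and 7 lower, and with SAM 1 and 10, where 10.9% and 11% of all tested genes were higher and lower with NAM and 14.2% and 14.2% with SAM. The 6 genes Acsl5, Hadh, Hsd17b10, Acaa2, Etfb and Acot2 were lower in all 3, against 6.65% of all tested genes. In SAM against control 1 of the 25 was called, the enoyl-CoA isomerase Eci1, which was lower (-0.72 ± 0.21, adjusted p = 0.0166). This count is not above the share over all tested genes, of which 5.02% were higher and 6.79% lower. Acads, the short-chain dehydrogenase, gave 0.31 ± 0.12 (adjusted p = 0.0957).

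The citrate cycle burns the acetyl-CoA that oxidation yields. Its list of 22 genes also holds the pyruvate dehydrogenase complex genes Pdhb and Pdhx. With TGFβ, 0 of the 22 were higher and 16 lower (median -0.41, with 9.74% of all genes lower). In all 3 backgrounds 12 were lower, Pdhb among them, against 6.65% of all tested genes. Isocitrate dehydrogenase Idh3a changed by -1.06 ± 0.11, Idh2 by -0.91 ± 0.10 and the complex II subunit Sdhd by -0.91 ± 0.15. With SAM alone 2 rose, among them Idh3a by 0.33 ± 0.11, and 0 fell, where 5.02% of all tested genes were higher, so this count is near the share over all genes. Peroxisomal oxidation had 0 of 14 higher and 5 lower with TGFβ (median -0.26, with 9.74% of all genes lower). Among the 5 were the fatty acid transporter Abcd3 with -0.73 ± 0.12 and the thiolase Acaa1a with -0.61 ± 0.18. These 2 were also the only ones of the 14 lower in all 3 backgrounds, against 6.65% of all tested genes. The peroxisome division factor Pex11a gave -0.48 ± 0.15. With NAM 1 of the 14 was higher and 2 lower (median -0.31), and with SAM 0 and 3 (median -0.26). In both, the lower genes made up a share near the 11% and 14.2% of all genes. In SAM against control 0 peroxisomal genes were higher and 0 lower, where 5.02% and 6.79% of all tested genes were. Transcripts of the mitochondrial genome made up 9.45% to 9.72% of gene reads in control, 6.89% to 7.60% in TGFβ, 7.99% to 9.05% in NAM, 6.60% to 7.33% in TGFβ+NAM, 10.1% to 10.5% in SAM and 6.87% to 7.73% in TGFβ+SAM.

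**Figure D4:**
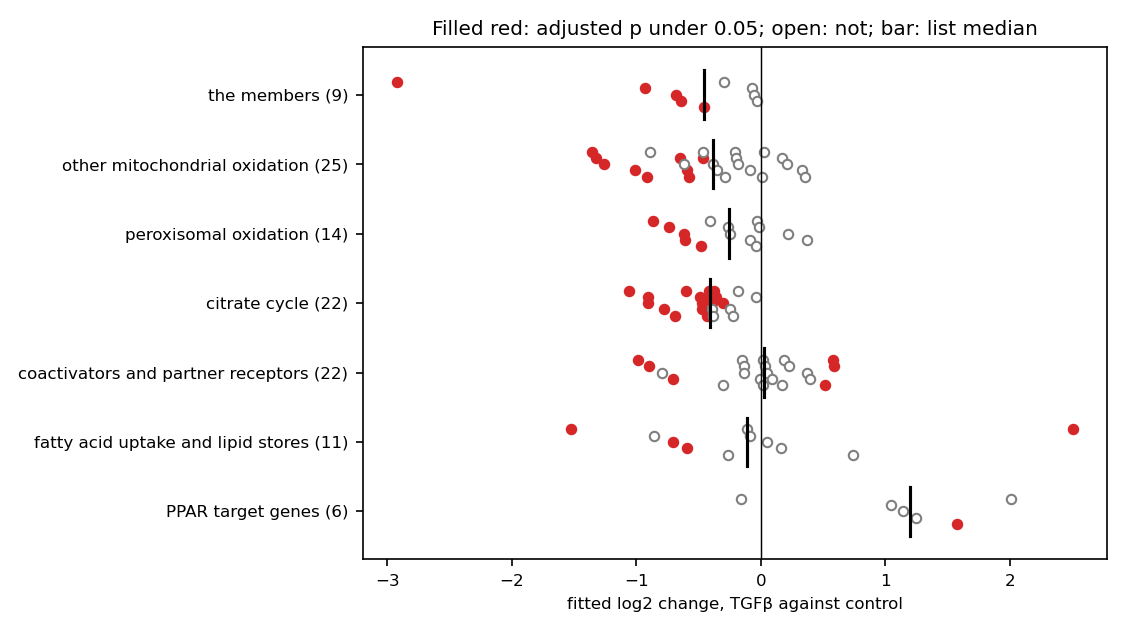
Fitted log2 change of each tested gene in TGFβ against control (x axis), by list with the number of tested genes in brackets; red points passed an adjusted p of 0.05 and bars are list medians. Called genes of mitochondrial and peroxisomal oxidation and the citrate cycle lie below 0, whereas Plin2 and Mgll lie above it.

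Among the partners of PGC-1α no common direction appeared, with 3 of 22 higher and 3 lower with TGFβ (median 0.03), where 9.7% of all genes were higher and 9.74% lower. With NAM 2 of these were higher and 4 lower (median 0.04), where 10.9% and 11% of all tested genes were. With SAM 3 were higher and 4 lower (median -0.02), where 14.2% and 14.2% of all tested genes were. Pprc1, a relative of PGC-1α, rose by 0.59 ± 0.18 and was higher in all 3 backgrounds. The coactivator Ncoa1 and Prkaa2, a catalytic subunit of the energy sensor AMPK, changed by -0.90 ± 0.19 and -0.71 ± 0.19 and were lower in all 3. Ppargc1b, the closest relative, gave -0.79 ± 0.34 and did not pass (adjusted p = 0.1); it was chosen after its values were seen. With SAM alone the retinoid X receptors Rxrb and Rxra, the obligate partners of PPARα on DNA, rose by 0.82 ± 0.16 and 0.61 ± 0.16. The acetyltransferase Kat2a changed by -0.65 ± 0.22, near the threshold (adjusted p = 0.0424). In all 3 of the 22 were higher and 1 lower with SAM alone, where 5.02% and 6.79% of all tested genes were.

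Other measures moved with TGFβ as well. Summed proximal tubule markers went from 1178 to 1309 CPM in control to 260.2 to 286 in TGFβ, mostly through Aqp1. The fibroblast list of 7 went from 3.29 to 7.09 CPM to 109 to 115 through Col1a1, with Lum, Thy1 and Pdgfra at 0 reads. The immune list, from Csf1r and Cd68, stood at 55.8 to 73.2 CPM in TGFβ. In SAM, the proximal tubule list stood at 1433 to 1508 CPM, the fibroblast list at 1.21 to 2.03 and the immune list at 113 to 132. The part of these shifts in the changes of the oxidation genes was not tested. At their 3′ ends 3 of the 10 genes overlap a gene on the other strand, Esrra with Trmt112, Acadvl with Dvl2 and Hadha with Garem2, and whether counting used strand is not stated in the labels. In SAM against control, where Esrra was called higher, Trmt112 gave 0.15 ± 0.14 (adjusted p = 0.568). In SAM against NAM, where Esrra was also called higher, Trmt112 was higher too (0.46 ± 0.14, adjusted p = 0.0229). In TGFβ+SAM against SAM, where Esrra was called lower, Trmt112 gave 0.11 ± 0.14 (adjusted p = 0.622). Without strand, reads that fall where Esrra and Trmt112 overlap cannot be told apart. Reads set aside as ambiguous were not used for any gene. Garem2 did not pass the low-count filter.

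The genes whose level most resembled that of Ppargc1a across the 18 libraries, among 9745 named genes at 5 CPM or more, were Tmem106b (Pearson r = 0.992), Osbpl3 (0.991), Vldlr (0.990), Id2 (0.987) and Fam3c (0.987). The r describes log2 CPM over libraries that the genes share and that fall into separate treatment groups, so it has no p. Vldlr, the receptor for very-low-density lipoprotein, stood on average at 187 CPM in SAM, 136 in control, 127 in NAM, 64.2 in TGFβ+SAM, 58.6 in TGFβ and 51.8 in TGFβ+NAM, the same order as Ppargc1a. Id2, a target of the BMP branch of TGFβ signalling, stood at 468 CPM in control, 100.3 in TGFβ and 776 in SAM.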

How the data were processed

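Polyadenylated RNA of 18 libraries was read with QuantSeq, which sequences a tag near the 3′ end of each transcript, so counts do not grow with transcript length. The deposited table holds raw counts per gene, made with STAR and HTSeq per the submitters' processing notes. Those notes name GRCh38, while all gene rows are mouse Ensembl identifiers, so the build used for counting is not settled; symbols and positions here come from GENCODE M21 (GRCm38), which matched 55141 of 55487 rows. Reads outside genes (22.8% to 28.2% of all reads) and ambiguous reads (0.607% to 0.779%) were not used.

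Groups follow the sample titles. Counts were fitted for all 18 libraries at once with edgeR 4.0.16 in R 4.3.3 (quasi-likelihood F test, two-sided, trimmed-mean scaling, filterByExpr with a minimum count of 10, Benjamini-Hochberg adjustment over the 13469 genes kept). Errors of fold changes are SE, and 11 comparisons and 2 interactions were tested. An exact permutation of 3 against 3 libraries cannot go below p = 0.1, so single genes were tested only through the fit over all genes. The alternatives tried were the DESeq2 1.42.0 test, its size factors within edgeR, library totals as the scale, no filter, a minimum count of 30, only the compared libraries, a replicate block, leaving out SAM replicates 2 and 3 or both libraries that stood apart in earlier results (NAM replicate 3, TGFβ+NAM replicate 1), and leaving out each library. Among single genes, the alternatives were examined only for the 10. The fitting code was tested on simulated data.

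The 10 genes and all lists were chosen with earlier results of these data known. Every one of the 10 is named; from each other list, up to 4 genes with the smallest p in TGFβ and in SAM against control, and the 5 genes most like Ppargc1a (log2 CPM, prior count 2). Some genes that this rule names are not reported here. Marker lists were tubular epithelium, proximal tubule, loop and distal tubule, collecting duct, fibroblast, immune cells, endothelium and podocyte; the loop and collecting duct lists summed to at most 2.53 and 4.04 CPM in any library, tubular epithelium to 843 to 873 and podocyte to 300.0 to 327 CPM in control.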

Additional observations from a re-analysis of the deposited data

How the results depend on the processing

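Of 1736 single-gene values under the alternatives, 1685 kept their direction and side of the threshold, 45 lost and 6 gained a call, and none called in either fit changed sign; 121 further values, called in neither fit, changed sign. The number of the 10 genes called went from 4 to 2 in TGFβ+NAM against NAM with only the compared libraries in the fit, and was 2 to 3 with 1 library left out. With SAM replicates 2 and 3 left out it went from 6 to 3 in TGFβ+SAM against SAM, from 4 to 1 in SAM against control and from 4 to 2 in SAM against NAM. It went from 0 to 1 in TGFβ+NAM against TGFβ with DESeq2 (1) and without the low-count filter (1), and was 0 to 1 for the SAM interaction with 1 library left out. Counts over all genes that moved by over 1.5 times were 1 for NAM against control (15 with DESeq2 and 15 without the filter) and 11 for TGFβ+NAM against TGFβ (40, 32, 0 with only the compared libraries, 20 without NAM replicate 3 and TGFβ+NAM replicate 1, and 3 to 14 with 1 library left out). Without SAM replicates 2 and 3, TGFβ+SAM against SAM gave 2258 calls in place of 3824, SAM against control 466 in place of 1591, SAM against NAM 639 in place of 1937 and the SAM interaction 63 in place of 193. TGFβ+SAM against TGFβ+NAM gave 1097, 667 with only those libraries and 696 to 1192 with 1 left out; with 1 left out, SAM against NAM gave 1272 to 1646 and TGFβ+SAM against TGFβ 630 to 1068, from 986. The cause was not tested.

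Replicate numbers gave no sign of pairing. Deviations from the group means correlated above 0.1 in 8 of 45 same-numbered pairs (-0.402 to 0.354) and 22 of 90 differently numbered pairs (-0.481 to 0.613). The highest value, 0.613, was between NAM replicate 3 and TGFβ+NAM replicate 1. With the replicate number as a block, the count of the 10 genes called was 5, 4 and 6 for TGFβ without a supplement, with NAM and with SAM, 0, 4, 0 and 0 for NAM and SAM alone and under TGFβ, 4 and 3 for TGFβ+NAM and TGFβ+SAM against control, 4 and 1 for SAM against NAM without and with TGFβ, and 0 for both interactions, as without it. Depth limits Ppara most, which was not tested. Next come Cpt2 and Hadhb, whose group means were 7.94 to 19.0 and 13.9 to 22.8 CPM, with SEs of 0.233 and 0.201 in TGFβ against control.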

Other observations

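Genes of lipid storage, which sits opposite fat oxidation in the handling of fatty acids, moved both ways with TGFβ. The lipid droplet coat Plin2, a PPAR target, rose from 125 ± 7.93 to 372 ± 17.1 CPM (SD, n = 3), a log2 change of 1.57 ± 0.10 (edgeR adjusted p = 5.33e-16), and by 1.69 ± 0.10 with NAM and 1.89 ± 0.10 with SAM. Of 6 tested genes on a list of PPAR targets, 1 was higher in TGFβ against control (median 1.20). With NAM 3 were higher (median 1.51), and with SAM 3 (median 1.75). None was lower, where 9.7%, 10.9% and 14.2% of all tested genes were higher. Of the 16 listed, 10 were below the low-count filter, Pdk4 and Cyp4a14 among them. Oxidation genes called lower in TGFβ against control, such as Acadm, Hadha and Acaa2, are not on this list. The count thus does not cover all genes that PPARα can act on. The mitochondrial carrier Ucp2 and the hormone Fgf21 gave 1.25 ± 0.49 and 2.01 ± 0.86 without a supplement and did not pass (adjusted p = 0.0704 and 0.1). Both were called higher with NAM (adjusted p = 0.0147 and 0.00554) and with SAM (adjusted p = 3.37e-05 and 3.37e-04), by 1.64 ± 0.50 and 2.96 ± 0.54 for Ucp2. Fgf21 rests on few reads, 10 in NAM against 69 in TGFβ+NAM and 1 in SAM against 53 in TGFβ+SAM. Angptl4 gave 1.05 ± 0.52 in TGFβ against control (adjusted p = 0.175). With SAM alone, Angptl4 was lower (-1.94 ± 0.63, adjusted p = 0.0350), a change that rests on 14 reads in SAM and 58 in control.

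Of 11 tested genes of fatty acid uptake and lipid stores, 1 was higher and 3 lower with TGFβ (median -0.11), where 9.7% of all tested genes were higher and 9.74% lower. With NAM 1 of these was higher and 5 lower (median -0.49), and with SAM 2 and 4 (median -0.53), where 10.9% and 11% of all tested genes were higher and lower with NAM and 14.2% and 14.2% with SAM. Monoacylglycerol lipase, Mgll, rose from 3.58 ± 1.40 to 20.4 ± 6.17 CPM (2.51 ± 0.29, adjusted p = 4.87e-09). The triglyceride lipase Pnpla2 changed by -0.59 ± 0.15, and the acyltransferases that complete triglycerides, Dgat1 and Dgat2, by -0.70 ± 0.16 and -1.53 ± 0.45. These 4 genes were called in the same direction on all 3 backgrounds. Of all 13469 tested genes, 896 were lower and 818 higher on all 3. With SAM alone Dgat1 and Dgat2 were higher, by 0.46 ± 0.15 and 1.16 ± 0.39 (adjusted p = 0.0355 and 0.0453). They were the 2 of the 11 called higher, with 0 lower, where 5.02% and 6.79% of all tested genes were. Both calls lie near the threshold, and whether they hold without SAM replicates 2 and 3 was not examined.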
